A study of Mus musculus with 50 samples.

Results

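The cornified envelope set described here is 50 genes, chosen by symbol, out of 19938 genes that the arrays measure with at least 1 probe set of their own. They are all genes whose array symbol starts with Sprr or Lce and a digit, the 7 transglutaminases with a numbered symbol, and the named genes Ivl, Lor, Flg2, Cdsn, Cnfn, Evpl, Ppl, Scel, Crct1, Hrnr and Rptn; Flg was sought too but had no probe set of its own. Each of the 50 genes is read by 1 probe set. Affymetrix Mouse Gene 1.0 ST arrays were used to measure RNA in the mammary gland of wild type (WT) and K14-DN-Clim mice, both on the CB6F1 background. In DN-Clim mice the keratin 14 promoter drives, in basal mammary epithelial cells (MECs), a fragment that blocks the Clim cofactors (DN, dominant negative), made of the domain through which Clims bind LIM proteins. The first experiment, on 42 arrays, held RNA of terminal end buds (TEBs), the growing tips of the ductal tree, and of ducts, each cut out by laser capture from mice aged 4, 6, 8 and 10 weeks. For TEB and duct alike there were 3, 3, 2 and 2 WT arrays and 3, 2, 3 and 3 DN-Clim arrays at these ages. The second experiment, on 8 arrays, held basal and luminal MECs of 10-week mice, sorted by CD29 and CD24 after removal of blood and endothelial lineage cells, with 2 arrays for each cell type and genotype.

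The cornified envelope is the shell of cross-linked protein that forms under the plasma membrane of keratinocytes at the end of their differentiation. Involucrin, loricrin, the small proline-rich (SPRR) proteins and the late cornified envelope (LCE) proteins are its precursors, and transglutaminases join them to one another. Envoplakin and periplakin, plakins that link keratin filaments to desmosomes, form its first scaffold, and corneodesmosin holds cornified cells together. Most of the precursor genes lie in 1 stretch of mouse chromosome 3, the epidermal differentiation complex, which holds 38 of the 50 genes. Mammary ducts are a glandular, not a cornifying, epithelium.

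Captured arrays had median intensities between 156 and 221, with WT TEB replicate 1 at 6 weeks the lowest and the next at 184. In that array 9.53% of probe sets lay under an intensity of 1. Sorted arrays had medians between 119 and 130. Mice of one age were littermates by the methods, and litter cannot be told apart from age. In these bulk samples fewer cells of a kind cannot be told apart from less RNA per cell. Descriptions of 2 WT duct arrays, replicate 2 at 8 and at 10 weeks, say TEB where their titles say duct, and titles of all 4 luminal arrays give the basal gate, high CD29, where their descriptions give the luminal one. All 10 basal markers tested were higher in basal than in luminal cells, and all 11 luminal markers lower, in WT and in DN-Clim cells, so the 4 arrays were used as luminal. Captured material was not pure epithelium, since the summed intensity of 9 adipocyte markers ran from 21179 to 58267 over the captured arrays, against 722 to 2616 in sorted cells.

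An intensity of 150 on at least 1 sorted array was reached by 22 of the 50 genes, and an intensity of 200 on at least 1 captured array by 25. Both were reached by 21 genes and neither by 24. Only genes that passed were tested, so calls among the 50 are out of 22 in sorted and 25 in captured arrays. The shares of all genes called that stand beside them are shares of the genes tested. Among the 37 precursor genes 17 passed in sorted cells, among the 3 scaffold and adhesion genes 3, and among the 7 transglutaminases 2, Tgm1 and Tgm2. None of the 3 measured filaggrin family genes passed in either experiment. Lor, which encodes loricrin, the chief envelope protein of epidermis, stayed at or under 66.2 in sorted and 101 in captured arrays. Scel, the sciellin gene, stayed at or under 60.4 and 88.9. Hrnr reached 126 and 148, Flg2 reached 41.1 and 109, and Rptn reached 28.1 and 45.1. The 5 Lce3 genes, Sprr3, Tgm4, Tgm5, Tgm6 and Tgm7 also passed nowhere, nor did Sprr2h, Sprr2i, Sprr2j-ps, Sprr2k, Lce1d, Lce1f, Lce1g, Lce1h and Lce1i. The genes just inside the sorted limit were Sprr2b at 152, Lce1e at 161 and Cnfn at 164, and those just outside were Lce1d at 149.67 and Sprr2k at 143. An intensity is a property of its probe set, so levels of different genes are not ranked against each other.

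The stretches of genome just before the starts of 3 genes of the complex are shown because the results turn on these genes: Ivl, the gene called in DN-Clim luminal cells, Lce6a, which stood beside it there, and Sprr1a, the gene called in more comparisons than any other of the 50. They are the 250 bases upstream of each start, as RefSeq places it on GRCm38.p6, all on the minus strand, written 5′ to 3′. Ivl lies at chr3:92573736-92573985, Sprr1a at chr3:92485882-92486131 and Lce6a at chr3:92621661-92621910. Capitals mark the AP-1 site TGANTCA, read on both strands, and the TATA box TATAAA.
Ivl: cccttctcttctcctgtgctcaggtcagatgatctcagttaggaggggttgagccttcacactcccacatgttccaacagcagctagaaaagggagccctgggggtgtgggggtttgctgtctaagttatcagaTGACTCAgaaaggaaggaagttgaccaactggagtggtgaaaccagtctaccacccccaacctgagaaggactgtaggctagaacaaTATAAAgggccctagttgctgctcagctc
Sprr1a: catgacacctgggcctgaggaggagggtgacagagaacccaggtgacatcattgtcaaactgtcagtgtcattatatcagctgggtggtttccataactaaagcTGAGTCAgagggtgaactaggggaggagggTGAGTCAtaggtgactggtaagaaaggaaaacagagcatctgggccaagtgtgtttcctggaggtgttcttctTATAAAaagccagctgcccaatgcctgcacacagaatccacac
Lce6a: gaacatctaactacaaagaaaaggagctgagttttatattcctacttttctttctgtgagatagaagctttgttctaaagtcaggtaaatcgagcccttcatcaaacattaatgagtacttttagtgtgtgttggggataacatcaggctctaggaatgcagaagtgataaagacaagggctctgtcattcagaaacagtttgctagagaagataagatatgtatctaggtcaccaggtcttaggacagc

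In the Ivl stretch the AP-1 match began 116 bases and the TATA box 29 bases before the start. Sprr1a had AP-1 matches at 146 and 116 bases and a TATA box at 43 bases, and Lce6a had neither run of letters. A window from 250 bases before to 50 bases after the start was on hand for 43 of the 50 genes. Only its 250 bases before the start were searched, and 14 of the 43 held the AP-1 letters there. By family these were 9 of 11 Sprr genes, 0 of 18 Lce genes and 5 of 14 others, namely Ivl, Lor, Flg2, Rptn and Scel. The match lay 182 to 198 bases before the start in the Sprr2 genes that had one. A TATA box stood in 10 of the 11 Sprr windows, 1 of the 18 Lce windows and 6 of the 14 others. Over all 32851 promoter windows, searched over the same 250 bases, 6.75% held the AP-1 letters and 7.59% the TATA box. Of the 46 windows of these genes, 14 and 17 did, and some genes had more than 1 start. The Ets core AGGAAG, present in 29.5% of all windows, was in 22 of the 46, the CACCC box, present in 52.0%, in 23, and the Grainyhead-like site AACCGGTT, present in 0.116%, in 0. These are matches of letters, not measured binding.

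In sorted luminal cells, the question was which of the envelope genes differed when the transgene was made in the neighbouring basal cells. Involucrin rose 13.5-fold in DN-Clim luminal cells and was the 1 gene of the 50 called there, where 7 of 12469 genes tested, 0.0561%, were called. Ivl encodes the soluble precursor that is laid down first at the membrane. It read 224 and 200.2 in the WT luminal arrays, against 1865 and 4419 in the DN-Clim luminal arrays. Both DN-Clim arrays stood above both WT arrays, while all 4 basal arrays stayed between 160 and 231. On the log2 scale Ivl was higher by 3.76 ± 0.37 (SE, n = 2 against 2; limma adjusted p = 0.0361). The call was lost when any WT or DN-Clim basal array or WT luminal replicate 1 was left out, with adjusted p between 0.00739 and 0.137 over the 8 such fits, and when the replicate number was a block (adjusted p = 0.0862).

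Lce6a, an LCE gene that lies between Ivl and the Lce1 genes in the complex, had the largest difference of the tested genes of the set and missed the threshold. It read 28.6 and 78.9 in WT luminal arrays and 1465 and 1020 in DN-Clim luminal arrays. Only these 2 DN-Clim arrays reached the limit of 150, so Lce6a was tested only because of the group where it was high. The groups did not overlap, and the log2 difference was 4.68 ± 0.62 (limma adjusted p = 0.0776). With 16 added to each intensity before the logarithm, Lce6a passed (adjusted p = 0.0438), so that 2 genes of the set were called in place of 1.

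Sprr2f, a small proline-rich precursor, read 187 and 174 in WT luminal arrays and 2749 and 763 in DN-Clim luminal arrays. All DN-Clim values were again above all WT values, and the log2 difference was 3.01 ± 0.75 (limma adjusted p = 0.389). Sprr1a, another of these precursors, which epithelia also make on wounding, read 2307 and 3802 in WT luminal arrays and 12230 and 12040 in DN-Clim luminal arrays, a log2 difference of 2.03 ± 0.73 (limma adjusted p = 0.575). Sprr2g went the other way in its means because WT luminal replicate 1 alone stood at 990, against 209 in replicate 2 and 286 and 267 in the DN-Clim arrays. Sprr1b lay at 438 and 646 in WT and 464 and 623 in DN-Clim luminal arrays, groups that overlapped.

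Of the other precursors that passed, Sprr4, Lce1c, Lce1e, Lce1j, Lce1k, Crct1 and Cnfn again had both DN-Clim luminal arrays above both WT ones. Sprr2b, Sprr2d, Sprr2e and Lce1b overlapped between the genotypes. Sprr4 lay between 412.5 and 493 over the 4 luminal arrays. Lce1j lay between 221 and 294, and Crct1 between 206 and 264. None of these precursors was called.

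**Figure D1:**
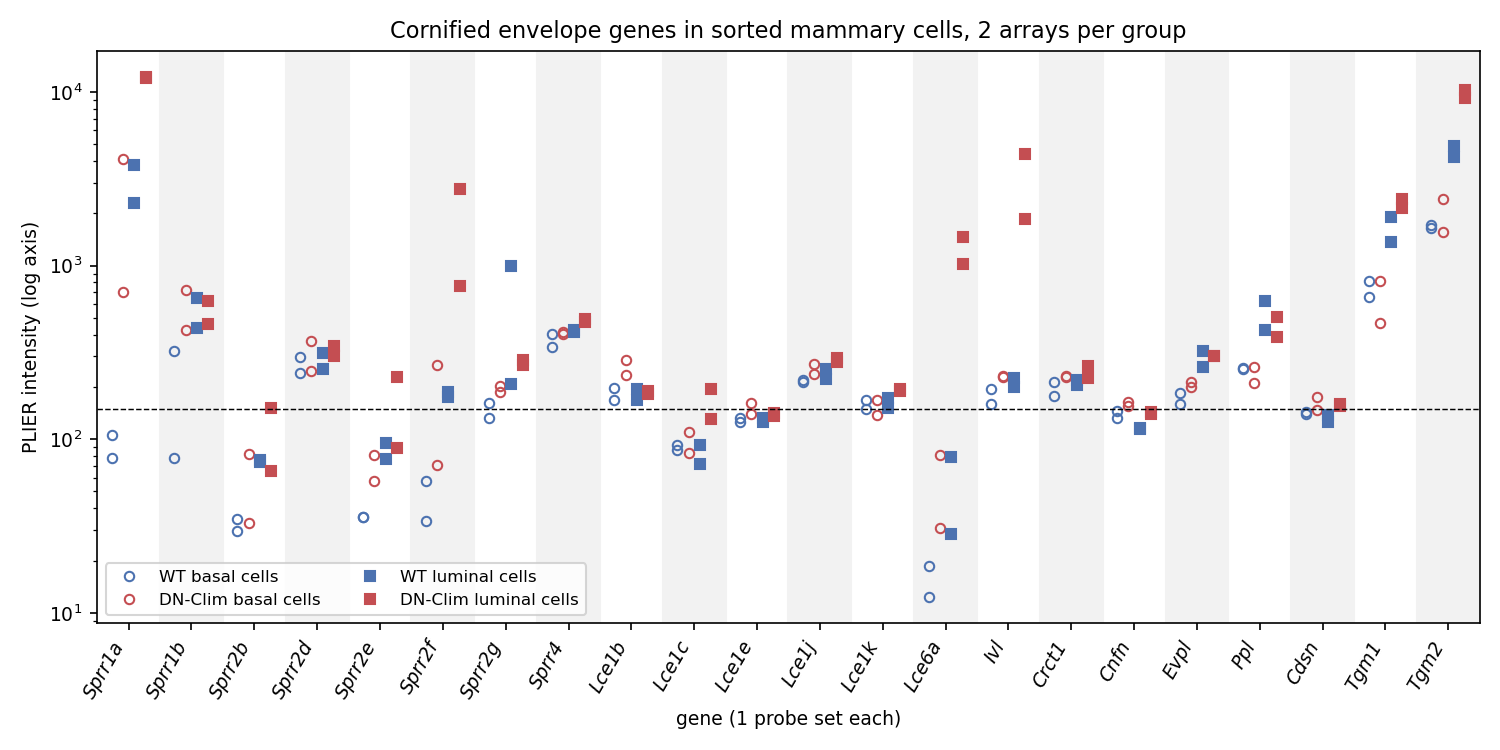
PLIER intensity on a log axis of the 22 genes that passed the intensity limit of 150 (dashed line) in sorted cells, with 1 point per array, 2 arrays per group, circles for basal and squares for luminal cells, blue for WT and red for DN-Clim. The DN-Clim luminal squares of Ivl (1865 and 4419) and Lce6a (1465 and 1020) stand apart from all 6 other arrays, whereas the luminal squares of Sprr4 stay between 412.5 and 493.

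Of the 26 genes that passed in either experiment, 12 were called in at least 1 comparison and the others in none. Among these others, medians over the captured arrays were 369 for Sprr4, 384 for Lce1j, 206 for Lce1b, 201 for Lce1k and 176 for Crct1. The rest were Sprr2b, Sprr2e, Sprr2g, Lce1a1, Lce1a2, Lce1c, Lce1e, Lce1l and Tgm3, whose geometric mean levels lay between 48.6 and 170 over all 50 arrays. Their highest captured values lay between 137 and 923, the latter in Sprr2g.

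In sorted basal cells, which make the transgene, none of the 50 genes was called, against 10 of 12469 genes or 0.0802%. Sprr1a had the largest difference. It read 106 and 78.0 in WT basal arrays, and 4122 and 705 in DN-Clim basal arrays. The DN-Clim arrays were both above the WT arrays but differed from each other several-fold, and the log2 difference was 4.23 ± 0.73 (limma adjusted p = 0.176). Sprr1b read 322 and 77.5 in WT and 720.1 and 423 in DN-Clim basal arrays, which did not overlap either. Lce6a read 18.5 and 12.3 in WT and 80.7 and 30.6 in DN-Clim basal arrays, all of them under the limit of 150. Markers of other cells were higher in the same DN-Clim basal arrays. Adipocyte markers summed to 977 to 1028 in WT and 2227 to 2616 in DN-Clim basal arrays, endothelial markers to 1194 to 1242 and 2458 to 4310, macrophage markers to 875 to 883 and 1647 to 1930, and fibroblast markers to 5349 to 7456 and 7611 to 9624. Their part in the basal values was not tested.

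The effects in the 2 cell types were compared as a difference of differences, in which 0 of the 50 genes were called beside 6 of 12469 genes, 0.0481%. Ivl came nearest, its luminal effect exceeding its basal effect by 3.38 ± 0.52 on the log2 scale (limma adjusted p = 0.239). The basal arrays of Ivl read 195.5 and 160 in WT and 229.5 and 231 in DN-Clim. The call of Ivl in luminal and not in basal cells is therefore not itself a called difference between the cell types.

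**Figure D2:**
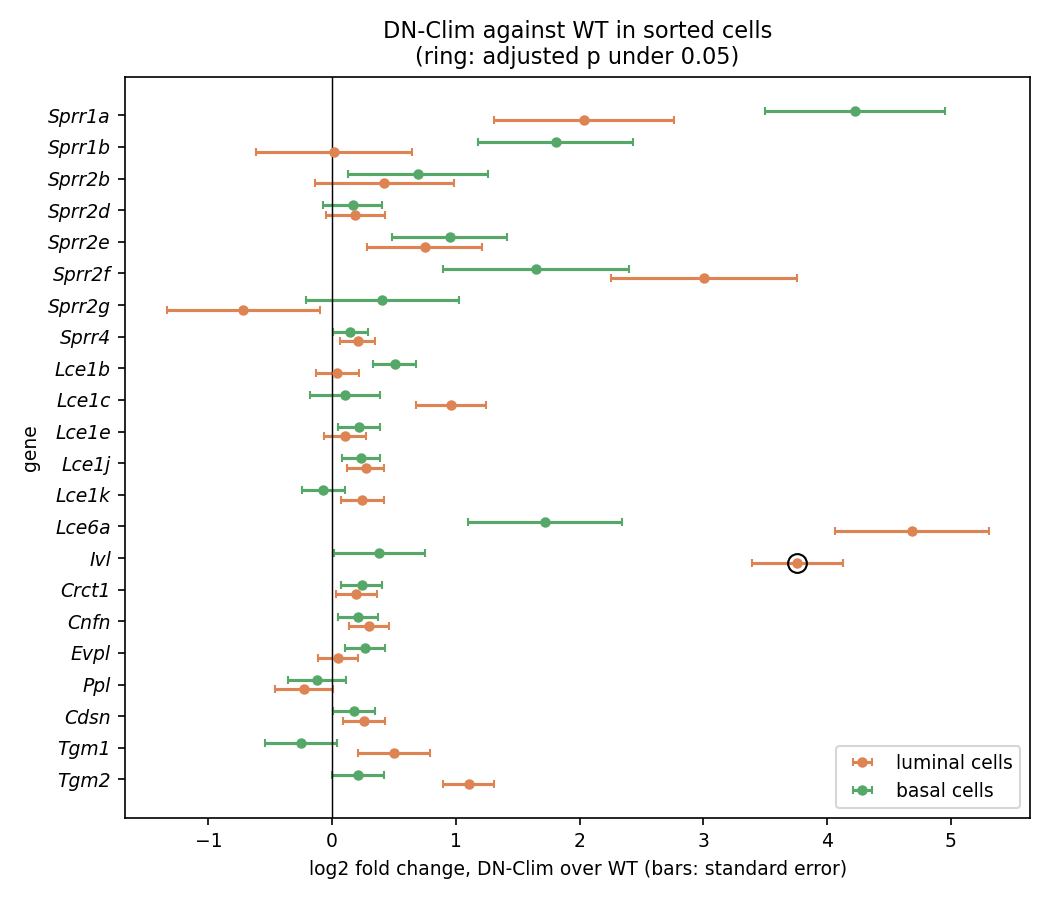
Log2 fold change of DN-Clim over WT in sorted luminal (orange) and basal (green) cells for the same 22 genes, with standard errors as bars and a ring where the adjusted p was under 0.05. The ring marks Ivl in luminal cells (3.76), Lce6a (4.68) and Sprr2f (3.01) lie to its sides without one, and Sprr1a reaches 4.23 in basal cells.

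Over all 50 genes, with no limit on intensity, 41 had a log2 difference above 0 in luminal cells and their median was 0.23. Over all 19938 genes the share above 0 was 53.2% and the median 0.02. In 26 of the 50 both DN-Clim luminal arrays stood above both WT ones, where 23.9% of all genes did so, and in 5 they stood below, where 18.6% of all genes did so. In basal cells 38 of 50 were above 0 with a median of 0.21, against 49.2% and a median of -0.01 over all genes. There 25 of the 50 had both DN-Clim arrays above both WT ones, against 22.8% of all genes, and 1, Lce3e, had them below, against 24.3%. Many of these are dim probe sets with small steps, such as Lor, Scel and Flg2 in luminal cells, and neighbouring genes of 1 family can share probe sequence.

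Other signals moved with these results in the same arrays. Krt4, a keratin of internal stratified epithelia, read 41.8 and 86.1 in WT luminal arrays and 909 and 3711 in DN-Clim luminal arrays (log2 difference 4.93, limma adjusted p = 0.0943). Krt77, a keratin of skin and its ducts, read 121 and 130.4 against 224 and 989. Krt6a, a keratin of stressed epithelia, read 535 and 277 against 726 and 4833, so that replicate 2 carried most of the DN-Clim level of all 3 keratins, as it did of Ivl.

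Krt10, the main keratin of living epidermal layers, read 149 and 147 in WT luminal arrays and 152 and 160 in DN-Clim ones. The summed intensity of the 7 suprabasal epidermis markers with a probe set was 992 and 1012 in WT luminal and 1156 and 2106 in DN-Clim luminal arrays. Fibroblast markers summed to 1629 to 2263 in WT and 3751 to 5100 in DN-Clim luminal arrays, adipocyte markers to 722 to 746 and 1433 to 1772, and macrophage markers to 602 to 611 and 693 to 1763. Endothelial markers overlapped, at 449 to 733 and 604 to 1793. The part of any of these in the results was not tested.

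Which of the 2 epithelial layers holds envelope gene RNA in the normal gland was read from WT cells. In WT, 5 of the 22 genes of the set that were tested were lower in basal than in luminal cells and none higher. Of all 12469 genes tested, 4223 or 33.9% were called, and 2288 or 18.3% were called lower in basal cells. The count of 5 of 22 is near that share. Sprr1a differed most, 32.6-fold, from 106 and 78.0 in basal to 2307 and 3802 in luminal arrays (log2 difference -5.03 ± 0.73, limma adjusted p = 0.00229). Tgm2, Evpl, Ppl and Tgm1 were the others and are given with their families. With luminal set over basal, 40 of the 50 genes in WT were above 0 with a median of 0.19, against 56.7% and 0.06 over all genes.

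In DN-Clim cells the same contrast called 8 of the 22 tested, all lower in basal cells, where 3765 genes or 30.2% were called. Of all these called genes, 2129 were lower in basal cells. Ivl was 12.5-fold lower in basal cells (log2 -3.64 ± 0.37, limma adjusted p = 0.000633), and Lce6a 24.6-fold lower (-4.62 ± 0.62, limma adjusted p = 0.00207). Lce6a passed the limit only through the DN-Clim luminal arrays, so its fold is taken over basal values under 150. Sprr2f was 10.5-fold lower, with 268 and 71.2 in basal and 2749 and 763 in luminal arrays (limma adjusted p = 0.015). Sprr1a was 7.12-fold lower (limma adjusted p = 0.0256). The call of Sprr2f was lost without DN-Clim basal replicate 2 or luminal replicate 1 (highest adjusted p = 0.0779), and that of Sprr1a without either DN-Clim luminal array (highest adjusted p = 0.104). The comparisons of sorted cells share arrays, so these calls and those between genotypes are not separate readings. With luminal over basal, 39 of the 50 were above 0 in DN-Clim with a median of 0.26, against 57.8% and 0.07 over all genes.

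Sprr1a was also the envelope gene that set DN-Clim apart in the captured structures. In TEBs it rose 3.72-fold over the ages and was the 1 gene of the 50 called, against 155 of 13362 genes or 1.16%. Its WT TEB arrays had a lowest, median and highest intensity of 70.6, 457 and 2725, and its DN-Clim TEB arrays 839, 1589 and 7047. The ranges overlap because the 4-week WT arrays were high, and with age in the fit the log2 difference was 1.89 ± 0.32 (n = 10 against 11, limma adjusted p = 0.0124). In ducts Sprr1a rose 3.17-fold, 1 of 3 genes called of the 25 tested, where 1973 genes or 14.8% were called. Its duct arrays ran from 107 over a median of 529 to 943 in WT and from 312 over 1560 to 7308 in DN-Clim (log2 difference 1.66 ± 0.31, limma adjusted p = 0.00509). Both calls held in all 21 fits that left out 1 array, but neither held without the 8-week arrays, where the differences were 1.77 in TEB (adjusted p = 0.125) and 1.40 in duct (adjusted p = 0.104). Without the 10-week arrays both calls held with smaller differences, 1.22 in TEB (adjusted p = 0.0316) and 1.06 in duct (adjusted p = 0.00891). Neither was called by the threshold in the study's methods, an unadjusted p under 0.001 and 1.5-fold at no fewer than 2 ages. With the unadjusted p under 0.01 of the legends of its gene lists, Sprr1a passed in both structures, at 8 and 10 weeks.

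Sprr1a changed with age in WT TEBs (limma F test adjusted p = 0.00233). That comparison called 3 of the 25 genes tested, against 29.9% of all genes. At 4 weeks the WT TEB arrays read 1591, 2200 and 2725. At 6 weeks they read 380, 534 and 261, at 8 weeks 560 and 325, and at 10 weeks 363 and 70.6. The 4-week TEBs stood above all later WT TEBs. In WT ducts the gene had no such 4-week level, with 522, 705 and 718 at 4 weeks, 826, 943 and 514 at 6 weeks, 472 and 430.5 at 8 weeks and 535 and 107 at 10 weeks.

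DN-Clim TEBs held 4-week levels of Sprr1a that overlapped those of WT, at 3037, 2872 and 1582. At 6 weeks they read 839 and 887, at 8 weeks 3078, 1589 and 1791, and at 10 weeks 7047, 1342 and 1529. From 6 weeks on, every DN-Clim TEB array was above every WT TEB array of its age. DN-Clim ducts read 906, 454 and 312 at 4 weeks, overlapping WT, then 1560 and 1513 at 6 weeks, 2908, 2164 and 2395 at 8 weeks, and 7308, 1148 and 2322 at 10 weeks.

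At single ages, Sprr1a was called in ducts at 8 weeks (log2 difference 2.45 ± 0.64, limma adjusted p = 0.04), 1 of the 50 genes against 3.73% of all genes. None of the 50 was called in ducts at 4, 6 or 10 weeks, where 0.0374%, 0.0898% and 0.0374% of genes were. None was called in TEBs at 4, 6, 8 or 10 weeks either, where 0%, 0.00748%, 1.8% and 0% of genes were. The differences of Sprr1a at 10 weeks were 3.93 in TEB (limma adjusted p = 0.102) and 3.49 in duct (limma adjusted p = 0.0521). Whether the DN-Clim effect itself changed with age was tested too. It called none of the 50 in TEB, against 0.00748% of genes, and none in duct, against 0.0374%, with Sprr1a at limma adjusted p = 0.262 and 0.178.

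**Figure D3:**
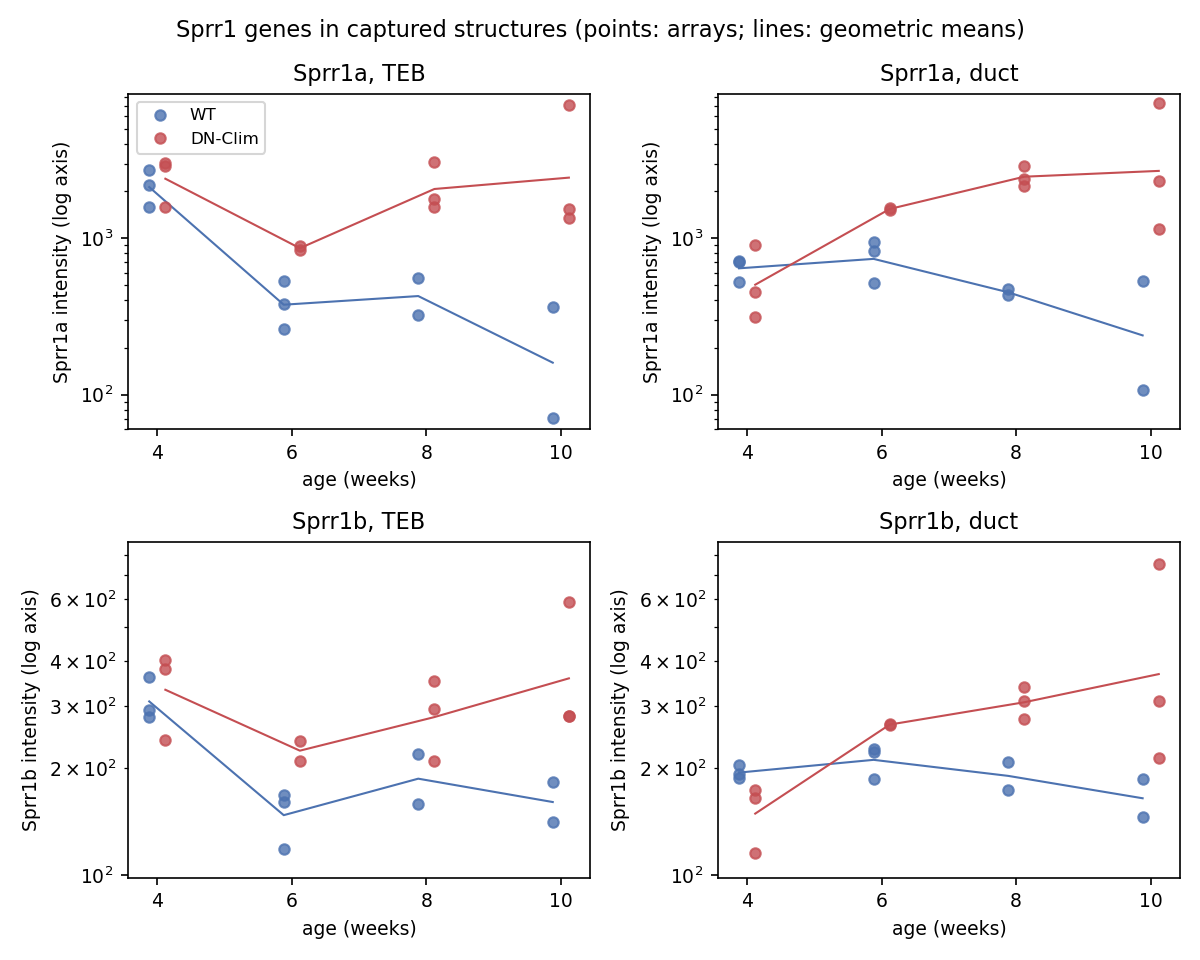
PLIER intensity on a log axis of Sprr1a and Sprr1b by age in captured TEBs and ducts, 1 point per array, WT and DN-Clim in 2 colours, lines through the geometric mean at each age. The 4-week WT TEB points of Sprr1a (1591 to 2725) lie above later WT TEB points, and the DN-Clim points stand above WT from 6 weeks on.

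Sprr1b, the close paralogue of Sprr1a, showed a smaller pattern of the same form. In TEBs it lay between 119 and 360 in WT, with a median of 175, and between 209 and 587 in DN-Clim, with a median of 280 (log2 difference 0.61 ± 0.16, limma adjusted p = 0.0672). At 4 weeks WT TEB arrays of Sprr1b read 279, 293 and 360 where WT duct arrays read 192, 187 and 204. It changed with age in WT TEBs (limma F test adjusted p = 0.0351), a call lost in 5 of 21 fits without 1 array, those of each 4-week array, of replicate 1 at 6 weeks and of replicate 2 at 10 weeks (highest adjusted p = 0.15). The probe sets of paralogues in this family can take up each other's RNA, so the genes are not independent readings.

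The 4-week contrast between structures was tested on its own because of these values. In WT, TEBs exceeded ducts in 2 of the 25 genes tested, where 434 genes or 3.25% were called, 211 of them higher in TEBs. They were Sprr1a (log2 difference 1.72 ± 0.44, limma adjusted p = 0.0453) and Sprr1b (0.67 ± 0.17, limma adjusted p = 0.0378). When 1 array was left out, the call of Sprr1a was lost in 12 of 20 fits (highest adjusted p = 0.241) and that of Sprr1b in 8 (highest adjusted p = 0.27), among them every fit without one of the 6 arrays of 4 weeks, and that of Sprr1b also without the WT duct pair described as TEB (adjusted p = 0.0599). In DN-Clim, 3 of the 25 were called against 8.02% of genes. Sprr1a at 2.25 ± 0.42 (limma adjusted p = 0.00151) and Sprr1b at 1.16 ± 0.23 (limma adjusted p = 0.00207) were higher in TEBs and Ppl was lower. In DN-Clim the calls of Sprr1a and Sprr1b held in all 42 fits that left out 1 array. Over all ages of WT, TEB and duct differed in none of the 50, against 0.876% of genes. A change of the WT difference with age was called in none of the 50 either, against 0.187% of genes, with limma adjusted p = 0.16 for Sprr1a and 0.0985 for Sprr1b. In the same WT 4-week contrast 9 of 10 basal markers were lower in TEBs, where 223 of 13362 genes were called lower. The part of this shift in the values of Sprr1a and Sprr1b was not tested.

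The DN-Clim effect in TEBs was then set against that in ducts. None of 13362 genes, 0%, was called by limma in this difference, and at an unadjusted p under 0.05 there were 1007 genes, none of them among the 50. Over all 50 genes with no intensity limit, 20 had a log2 difference above 0 in TEBs and 18 in ducts, with medians of -0.04 and -0.08. Over all genes 42.9% and 46.9% were above 0, with medians of -0.03 and -0.02. In the captured structures the set as a whole thus had medians near those of all genes, while Sprr1a did not.

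The other called genes of the ducts went down. Cdsn, which encodes corneodesmosin, decreased by 0.39 ± 0.09 on the log2 scale in DN-Clim ducts (limma adjusted p = 0.0153). Its WT duct arrays ran from 184 over a median of 284 to 539, and its DN-Clim duct arrays from 158 over 248 to 414. Cnfn, cornifelin, a minor envelope protein, decreased by 0.25 ± 0.08 (limma adjusted p = 0.0419), with 174 to 226 in WT and 134 to 201 in DN-Clim ducts. The ranges overlapped for both, and both calls were lost with the replicate block, in which the differences were -0.41 (adjusted p = 0.0522) and -0.27 (adjusted p = 0.0964). Both were lost, too, without the 10-week arrays (adjusted p = 0.182 and 0.0865) and without the 2 WT duct arrays described as TEB (adjusted p = 0.0708 and 0.235). The call of Cnfn was lost in 12 of the 21 fits that left out 1 array (highest adjusted p = 0.124), and that of Cdsn in 1, without WT duct replicate 1 at 8 weeks (adjusted p = 0.0501). In TEBs Cdsn differed by -0.46 ± 0.14 (limma adjusted p = 0.122).

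Cdsn was also the member that changed with age in both structures and both genotypes. In WT ducts 2 of the 25 genes tested were called, against 26.4% of all genes. There Cdsn read 273, 184 and 244 at 4 weeks and 209, 294 and 217 at 6 weeks. It then read 539 and 451 at 8 weeks and 474 and 530 at 10 weeks, so that all later arrays stood above all earlier ones (limma F test adjusted p = 0.000479). In WT TEBs the 4-week arrays lay between 216 and 273, the 6-week arrays between 278 and 326, and the 8- and 10-week arrays between 522 and 691 (adjusted p = 0.00312). Markers of other cells moved with age in the same arrays. Of 9 adipocyte markers 8 changed with age in WT ducts and 8 in WT TEBs, and of 8 endothelial markers 6 and 8. The adipocyte sum ran from 26451 to 32284 in WT ducts of 4 weeks and from 44681 to 49082 at 10 weeks.

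DN-Clim TEBs called Cdsn as the only one of the 50, against 18.3% of genes, with values of 220, 252 and 230 at 4 weeks, 532, 408 and 435 at 8 weeks, and 194, 526 and 281 at 10 weeks (limma F test adjusted p = 0.0347). That call was lost in 7 of 21 fits that left out 1 array, namely any DN-Clim TEB array of 4 or 8 weeks or replicate 1 of 6 weeks (highest adjusted p = 0.127). In DN-Clim ducts Cdsn read 158, 230.4 and 196 at 4 weeks, 382, 342 and 414 at 8 weeks, and 250, 321 and 248 at 10 weeks (adjusted p = 0.00444). In DN-Clim ducts all 10-week arrays thus lay under all 8-week arrays, whereas in WT ducts these ages overlapped. The adipocyte sum of DN-Clim ducts was 26576 to 28074 at 4 weeks, 32641 to 49602 at 8 weeks and 24558 to 37473 at 10 weeks. The part of fat or vessels in the changes of Cdsn was not tested. A change of the DN-Clim effect with age was not called for Cdsn in either structure.

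Evpl, the envoplakin gene, changed with age in ducts of both genotypes. WT duct arrays read 254, 247 and 250 at 4 weeks, 386 and 396 at 8 weeks, and 298 and 299 at 10 weeks (limma F test adjusted p = 0.000451). DN-Clim duct arrays read 253, 258 and 262 at 4 weeks, 330, 317 and 328 at 8 weeks, and 361, 342 and 361 at 10 weeks (adjusted p = 0.000797). The highest age was thus 8 weeks in WT and 10 weeks in DN-Clim ducts, and the change of the effect with age had limma adjusted p = 0.191.

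In sorted cells Evpl was lower in basal than luminal arrays, 185 and 159 against 262 and 323 in WT (log2 difference -0.76 ± 0.16, limma adjusted p = 0.0117) and 212 and 199 against 299 and 301 in DN-Clim (-0.55 ± 0.16, adjusted p = 0.0439). The DN-Clim call of Evpl was lost with the replicate block (adjusted p = 0.0687) and in 6 of the 8 fits without 1 array, namely any basal or DN-Clim luminal array (highest adjusted p = 0.155), and its WT call in 2, without WT basal or WT luminal replicate 2 (highest adjusted p = 0.0696). Ppl, its partner periplakin, read 252 and 258 in WT basal and 428 and 629 in WT luminal arrays (-1.02 ± 0.23, adjusted p = 0.0148). In DN-Clim cells it read 260.4 and 211 in basal and 387 and 507 in luminal arrays (-0.92 ± 0.23, adjusted p = 0.0251). The calls of Ppl were lost in 3 of 8 fits without 1 array in each genotype, with a highest adjusted p of 0.0685 in WT (either basal array or luminal replicate 2) and 0.125 in DN-Clim (the same 3 numbers of its arrays). None of the basal and luminal values of either gene overlapped within a genotype.

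Among captured arrays Ppl was lower in TEBs than ducts of 4-week DN-Clim mice, 330.2, 391 and 381 against 441, 525 and 530 (log2 difference -0.44 ± 0.12, limma adjusted p = 0.0247), a call lost without any of these TEB arrays or without duct replicate 2 or 3 (highest adjusted p = 0.125). In WT at 4 weeks the TEB arrays read 381, 362 and 345 and the duct arrays 477, 343 and 376, and these overlapped. Over all ages of WT, Ppl differed by -0.26 between TEB and duct (adjusted p = 0.106).

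**Figure D4:**
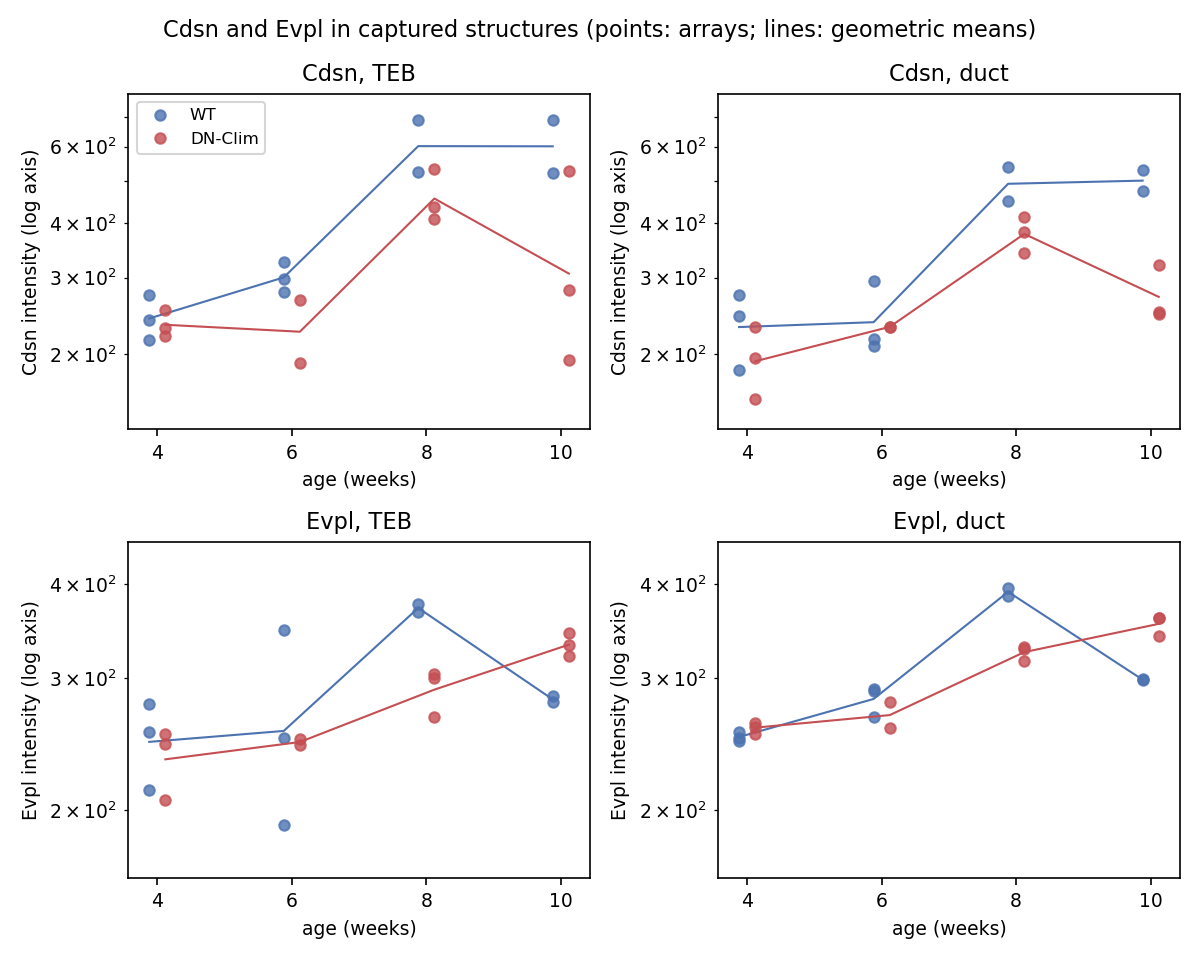
PLIER intensity on a log axis of Cdsn and Evpl by age in captured TEBs and ducts, 1 point per array, WT and DN-Clim in 2 colours, lines through the geometric mean at each age. WT duct points of Cdsn move from 184 to 273 at 4 weeks to 474 to 530 at 10 weeks, and Evpl peaks at 8 weeks in WT ducts and at 10 weeks in DN-Clim ducts.

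Of the cross-linking enzymes, Tgm1, the membrane-bound transglutaminase of keratinocytes, and Tgm2, the tissue transglutaminase found in many cell types, were measured in sorted cells. Tgm2 was 2.70-fold lower in basal than in luminal cells of WT, at 1645 and 1719 against 4228 and 4874 (log2 difference -1.43 ± 0.21, limma adjusted p = 0.00232). In DN-Clim cells it was 5.02-fold lower, at 2425 and 1558 in basal and 9250 and 10280 in luminal arrays (adjusted p = 0.000415). Both DN-Clim luminal arrays exceeded both WT luminal arrays, a log2 difference of 1.10 ± 0.21 that missed the threshold (adjusted p = 0.188).

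Tgm1 read 659.6 and 817 in WT basal arrays and 1917 and 1370 in WT luminal arrays (log2 difference -1.14 ± 0.29, limma adjusted p = 0.0225), a call lost without either WT basal array or WT luminal replicate 1 (highest adjusted p = 0.111). In DN-Clim it read 812 and 469 in basal and 2431 and 2153 in luminal arrays (-1.89 ± 0.29, adjusted p = 0.00363). In WT captured arrays its log2 difference of TEB from duct was -0.49 ± 0.12, which missed the threshold (limma adjusted p = 0.0752). Tgm3, the soluble epidermal and hair follicle transglutaminase, stayed at or under 115 in sorted arrays and passed the limit in captured ones, where its highest level was 333.

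In DN-Clim ducts, 7 of the 25 genes of the set that were tested changed with age, where 2385 of all genes tested or 17.8% did. Besides Evpl and Cdsn they were Sprr1a (limma F test adjusted p = 0.0174), Sprr1b (0.0212), Tgm1 (0.0302), Sprr2d (0.037) and Lce6a (0.0384). Sprr2d lay between 173 and 205 at 4 weeks and between 238 and 275 at 8 weeks. Tgm1 read 694, 365 and 410.1 at 4 weeks and 2610, 1712 and 770.3 at 10 weeks. The highest 10-week value of Sprr1a, Sprr1b, Tgm1 and Lce6a came from 1 array. Leaving out 1 array lost the call of Lce6a in 9 of 21 fits (highest adjusted p = 0.132), of Sprr2d in 7 (0.118), of Tgm1 in 4 (0.152), and of Sprr1a (0.102) and Sprr1b (0.117) in 2 each, without DN-Clim duct replicate 2 or 3 at 4 weeks. Without both arrays of that number, 5 of the 50 were called, and Tgm1 (adjusted p = 0.152) and Lce6a (adjusted p = 0.0706) were not.

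That number, DN-Clim 1 at 10 weeks, stood apart in both of its arrays. Its TEB array was more than 2 times the next highest of the 21 TEB arrays for 5 of the 25 genes of the set that passed. Its duct array was more than 2 times the next for 7 of the 25. Over all 13362 genes, 43 in TEB and 37 in duct exceeded the next array more than 2 times in this way. Sprr2b, among the 7, reached the limit of 200 only in this duct array. Sprr2g, counted in both structures, reached it only in the 2 arrays of this number. These 2 genes thus passed only through the arrays in which they are counted as high.

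Sprr2f read 2126 in its TEB and 2363 in its duct array, 9.22 and 9.89 times the next highest array of each structure. Ivl read 1350.5 and 1901, which was 5.93 and 4.02 times the next. Sprr2g read 732 and 923, 4.10 and 6.02 times the next. Lce6a read 1241 and 1434, 2.86 and 2.51 times the next.

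These are the genes with the widest steps in DN-Clim luminal cells, plus Sprr2g. Sprr1a read 7047 and 7308, 2.29 and 2.51 times the next, and Sprr1b 587 and 755, 1.45 and 2.22 times the next. Tgm1, at 2182 and 2610, was 1.67 and 1.52 times the next. Sprr4, Lce1j, Evpl and Ppl of the same arrays lay inside the range of the others, so not every gene of the set was high in them.

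Beside these values, Krt77 read 2511 in TEB and 3706 in duct of this number, against 120 to 189 in the other 10-week arrays. Krt4 read 1550.5 and 860 against 12.1 to 115, and Krt6a 1470.5 and 1697 against 58.2 to 185. DN-Clim replicate 1 at 6 weeks was high in these keratins too, with Krt4 at 2899 in TEB and 2644 in duct. Its Krt6a read 1165 and 1504, and its Krt77 395 and 409. In DN-Clim 1 at 10 weeks, Krt80, a keratin of differentiating epithelia, read 397 and 518 against 142 to 202. The sum of the 7 suprabasal epidermis markers was 3650 and 5021 against 1051 to 1451 in the other 10-week arrays, and Krt77 made up most of it.

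Krt1 of this number, at 515 and 596, lay within the range of the other captured arrays, 255 to 699. Krt10, at 210 and 207, lay within 69.4 to 222, and Krt2, at 43.5 and 68.0, within 16.8 to 75.4. Dsg1b, Calml3 and Asprv1 were within the range of the others as well. The part of skin or of stratified epithelium in these 2 arrays was not tested. Without them, Sprr1a kept its calls in TEB (log2 difference 1.70, limma adjusted p = 0.0112) and in duct (1.48, adjusted p = 0.0034).

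**Figure D5:**
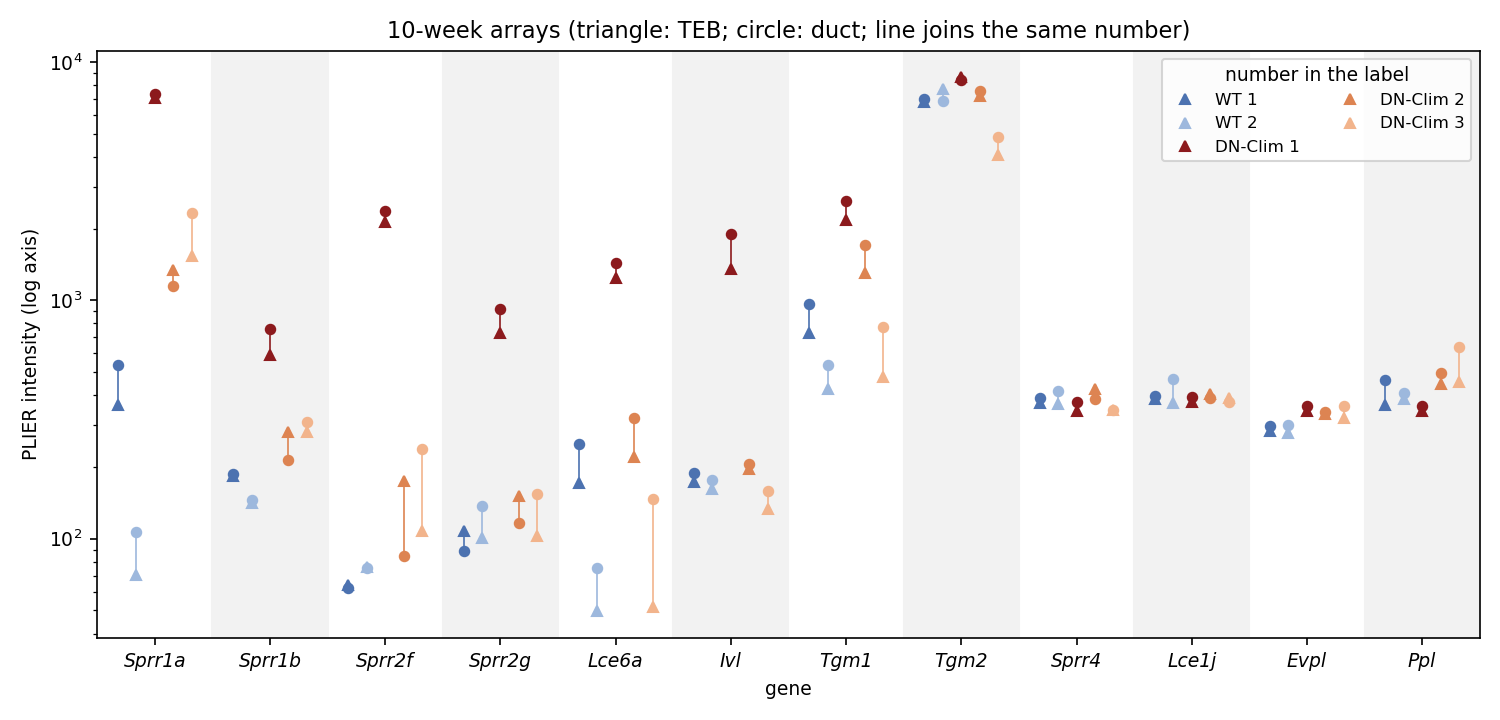
PLIER intensity on a log axis of 12 envelope genes in each 10-week captured array, triangles for TEB and circles for duct, joined by a line where they carry the same number, blue for WT 1 and 2 and dark red to orange for DN-Clim 1, 2 and 3. DN-Clim 1 stands above the rest for Sprr2f (2126 and 2363), Ivl, Sprr2g and Lce6a, while Sprr4, Lce1j and Evpl show no such gap.

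The other genes of the squamous program that were listed with the set gave no call in the luminal comparison of genotypes, where 0 of 10 keratins, 0 of 11 desmosomal genes, 0 of 24 regulators, 0 of 8 barrier lipid genes and 0 of 8 S100 genes were called, against 0.0561% of all genes. Among them Bnc1, a zinc finger factor of basal keratinocytes, differed by 2.40 ± 0.45 (limma adjusted p = 0.185) and S100a14 by 1.38 ± 0.56 (adjusted p = 0.594). In DN-Clim ducts 4 of 10 desmosomal genes rose, where 8.54% of all genes did. They were the cadherins Dsg3 (log2 difference 0.71, limma adjusted p = 0.0277), Dsc2 (0.68, adjusted p = 0.00602) and Dsg2 (0.32, adjusted p = 0.00509) and the plakophilin Pkp1 (0.36, adjusted p = 0.0159). In TEBs, where 1.16% of genes were called, Pkp1 alone of the 10 rose (0.42, adjusted p = 0.0196).

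Of 21 regulators of squamous differentiation measured in ducts, 3 were called, a share near the 14.8% of all genes. Jun, a subunit of AP-1, rose by 0.70 (limma adjusted p = 0.000314), Elf3, an Ets factor of epithelia, by 0.42 (adjusted p = 0.027), and Maf decreased by 0.22 (adjusted p = 0.0368). In TEBs Jun rose by 0.50 (adjusted p = 0.0136) and the other regulators were not called. Cyp4f39, of the barrier lipid genes, rose in ducts by 0.34 (adjusted p = 0.0207), and S100a16 by 0.19 (adjusted p = 0.0434), each the only one called of its list. In the same duct comparison 5 of 10 basal markers, 4 of 9 adipocyte markers and 3 of 8 macrophage markers were lower in DN-Clim, where 6.23% of all genes were lower, and 2 of 11 luminal markers were higher. The part of these shifts in cell makeup in the duct results was not tested.

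Between the sorted layers of WT, 18 of 24 regulators were called, where 33.9% of all genes were. Of these, 10 were lower in basal cells, where 18.3% of all genes were. Among those lower, Zfp750, a regulator of terminal epidermal differentiation, differed by -4.41 (limma adjusted p = 0.000826), Grhl1, a Grainyhead-like factor, by -3.76 (adjusted p = 0.000228), and Ovol1 by -1.44 (adjusted p = 0.00945). The other called regulators were higher in basal cells, where 15.5% of all genes were. Trp63, the p63 gene of basal cells, was among them, higher by 6.75 (adjusted p = 0.000124). The list thus went both ways, and its relation to the envelope genes was not tested. Desmosomal genes were mixed, with 4 of 11 higher in basal cells, against 15.5% of all genes, and 1, Pkp2, lower.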

How the data were processed

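RNA of captured TEBs and ducts and of sorted MECs was hybridised to Affymetrix Mouse Gene 1.0 ST arrays. The deposited values are PLIER intensities, 1 per probe set and array, which the authors made from the scanned arrays with the PLIER algorithm (version not given in the sources used here), and no scanner files were used here. PLIER can give values near 0, so intensities under 1 were set to 1 before log2. Of 35557 probe sets, 21789 carried 1 gene symbol, 1621 several and 12147 none, in GEO's platform annotation. For each of 19938 genes the probe set with the highest mean log2 intensity was used, and all 50 genes of the set were matched to RefSeq by gene ID. Genes with an intensity of 150 on 1 sorted array (12469) or 200 on 1 captured array (13362) were tested. limma 3.58.1 in R 4.3.3 (lmFit, eBayes with a variance trend) was fitted across all of them, with Benjamini-Hochberg adjustment and calls at an adjusted p under 0.05. Sorted arrays entered 1 fit of 4 groups, TEB and duct arrays 1 fit each of 8 groups. The sorted fit had no mouse block, so its basal and luminal arrays entered as independent. Those of the same number may come from 1 mouse. Their deviations from the group means correlated at 0.29 in WT and 0.22 in DN-Clim.

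Comparisons of TEB with duct took the mouse as a random block (consensus correlation 0.23 in WT and 0.37 in all captured arrays). Taking the same number in TEB and duct as 1 mouse rests on the labels' numbering and on the data: deviations from the group means correlated at -0.08 to 0.65 in WT (9 of 10 pairs over 0.1) and at 0.43 to 0.84 in DN-Clim (11 of 11). Fits that left out arrays kept the correlation of the full fit. The labels call the arrays biological replicates. No 2 arrays were identical (highest correlation 0.990). The array number limits the precision.

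The members, the gene lists and the tests were chosen with earlier results of these data known. The 4-week contrasts of TEB with duct, the single-age contrasts, and the fits without the DN-Clim number 1 at 10 weeks were added after the data were seen. Genes were named where they passed a test, or had one of the 5 highest mean signals of those that did not, and of the other lists those past the test, the largest first. The fit was tested on simulated data. Alternatives were no intensity limit, an offset of 16, 2 other normalizations, blocks, omitted arrays and ages, and the thresholds given in the study's methods and in the legends of its gene lists, which differ.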

Additional observations from a re-analysis of the deposited data

Results flagged for a closer look

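Probe sets that the annotation gives to several genes entered none of the comparisons, and 2 of them carried a signal in DN-Clim cells above that of WT. The first, shared by Sprr2a1, Sprr2a2, Sprr2a3 and Sprr2b, read 8383 and 8941 in DN-Clim luminal arrays, so that its lowest DN-Clim value exceeded the highest WT luminal value of 5977. The second, shared by Sprr2a1 and Sprr2a3, read 9361 and 10789 in DN-Clim luminal arrays against 4158 and 2050 in WT luminal arrays. A further probe set for the same genes held identical values. In basal cells the first read 232 and 95.2 in WT and 2107 and 417 in DN-Clim, and the second 209 and 105 in WT and 1567 and 319 in DN-Clim. These Sprr2 genes are nearly identical in sequence, so the signal cannot be given to 1 of them, and no test was run on it. In captured arrays the first ran from 1900 to 10980 in DN-Clim ducts of 10 weeks, against 209.7 to 290.1 in WT ducts of that age. A probe set shared by Lce3 genes lay between 209.9 and 297 in all sorted arrays.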

How the results depend on the processing

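Over the results for single genes, 1024 of 1184 alternative values kept the side of the threshold, 139 lost the call and 21 gained it. No fold change reversed, but tests of change with age have no direction. Many other settings could not alter a direction, such as a changed threshold or an omitted array outside the comparison. Numbers of called genes of the set moved as follows. In luminal cells the 1 call became 2 with an offset of 16. The study's methods and the legends of its gene lists give different thresholds, and both were run, the methods' ones chosen after seeing the data. For sorted cells, the legends' unadjusted p under 0.001 with a 1.5-fold change gave 2 luminal calls, and the methods' 0.01 gave 4. Either took basal cells and the difference of luminal and basal effects from 0 to 1. WT basal against luminal went from 5 to 2 and DN-Clim basal against luminal from 8 to 4 with the legends' threshold, and to 5 and 7 with the methods'. For captured cells, both ask for 1.5-fold in at least 2 of the ages. With the legends' unadjusted p under 0.01, Sprr1a kept its call in TEB and was the 1 duct call left of 3. The methods' 0.001 left 0 in duct and 0 in TEB, so that Sprr1a was not called there. In TEBs the 1 call of DN-Clim against WT became 2 with quantile normalization and with a common mean and variance, 3 with all captured arrays and the mouse as a random block, and 0 without 8 weeks. In ducts the 3 calls became 5 with quantile normalization or without 4 weeks, 0 without 8 weeks, and 1 without 10 weeks and without the 2 WT duct arrays described as TEB. WT TEB against duct went from 0 to 2 with quantile normalization. Change with age in WT TEBs went from 3 to 5 with a common mean and variance. In DN-Clim TEBs it went from 1 to 0 without the intensity limit, 3 with quantile normalization and 2 with a common mean and variance. The 2 calls at 4 weeks in WT became 1 without the intensity limit and 1 without the 2 WT duct arrays. The cause of these moves was not tested.

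With the replicate block, the luminal call went from 1 to 0, the duct calls from 3 to 1 and the change of the duct effect with age from 0 to 1 (Sprr1a). The labels do not say that the same number pairs a WT with a DN-Clim mouse. Deviations of WT and DN-Clim arrays of the same number correlated at -0.33 to 0.28 in TEB and -0.29 to 0.45 in duct. In sorted cells they correlated at 0.05 in luminal and -0.16 in basal arrays, and 2 arrays a group cannot decide such a pairing. With no replicate block, WT TEB against duct stayed at 0 genes of the set.

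Leaving out 1 array at a time gave these ranges of called genes: luminal 0 to 3, basal 0 to 1, difference of luminal and basal effects 0 to 1, WT basal against luminal 2 to 7, DN-Clim basal against luminal 5 to 8, TEB 1 to 3, duct 1 to 6, difference of TEB and duct effects 0 to 0, WT TEB against duct 0 to 1, change with age in WT TEB 2 to 8, WT duct 2 to 3, DN-Clim TEB 0 to 4 and DN-Clim duct 2 to 7, DN-Clim effect by age 0 to 0 in TEB and 0 to 1 in duct, TEB against duct at 4 weeks 0 to 3 in WT and 2 to 3 in DN-Clim, and its change with age 0 to 1. With 2 arrays a group in sorted cells and no detection calls, genes near the intensity limits are weakly measured.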
